A study of Caenorhabditis elegans with 54 samples.

Results

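The comparison described here set whole larvae of Caenorhabditis elegans that received UV on day 1 of dauer against larvae that did not, both collected 6 h after exit from dauer was induced. It rests on 6 of 54 RNA-seq libraries, 3 with UV and 3 without, all from the strain daf-2 (e1370) in the N2 background, which carries a mutation of the insulin receptor gene that makes the larvae enter dauer at a raised temperature. Dauer was induced from the first larval stage, and exit was started on day 1 of dauer (D1) by moving them to fresh food at a lower temperature. UV came from a broadband UVB lamp, and the dose used for the sequenced worms is not given in the sources used here. The larvae without UV are the 6 h libraries of the exit course, and whether they were mock-treated is not given either. Each library is a pool of whole worms, and the methods call the 3 of each group biological replicates. A gene was compared if 3 or more of the 6 libraries held 10 or more of its counts, which kept 13463 of 19909 genes. The question is what larvae that have just begun to resume development after UV express differently from undamaged larvae at the same hour.

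Dauer is an arrested, stress-resistant larval stage that worms enter when food is short or the population is dense, with a remodelled cuticle, suppressed feeding and a metabolism that runs on stored fat. On exit the larvae feed again, rebuild protein synthesis and growth, and later shed the dauer cuticle. UVB joins neighbouring pyrimidine bases in DNA, and such lesions stop RNA polymerase II. Nucleotide excision repair removes them, either wherever they are met in the genome, through XPC-1, or where a polymerase has stalled, through CSB-1 and CSA-1.

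The 6 libraries were alike in depth, with 8187499 to 10551063 estimated counts in all, and the means of 9629756 ± 815401 without UV and 9198433 ± 1218268 with UV gave p = 0.8 in an exact two-sided permutation test (n = 3 and 3). The smallest p that this test can give is 0.1. With every library thinned to the same depth, 16950 ± 68.2 genes had a count without UV and 16756 ± 119 with UV (exact p = 0.1). Log2 CPM (counts scaled to a common library total) of libraries of a group correlated across genes with Pearson's r of 0.986 to 0.992, genes not being independent replicates. Scaling factors were 1.02 without UV and 0.98 with UV in all 6, so plain CPM values of UV libraries read slightly low beside the fitted changes. UV replicate 3 stood apart in the yolk protein (vitellogenin) genes, which are known for their expression in the adult gut. The 6 genes summed to 0.41, 0.457 and 0.482 CPM without UV and to 1.42, 0.79 and 64.6 CPM with UV, and since a single library had counts to speak of, they failed the filter and were not tested. Such spread between libraries of a group was also seen elsewhere in the series, as on day 4 at 6 h without UV, from 0.366 to 168 CPM. Without UV replicate 3 the comparison called 3489 genes, and the collagen results are given with and without it. The part of the yolk protein RNA in the UV comparison was not tested. No collection or sequencing date is given, so a batch that followed the groups cannot be told apart from UV.

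UV larvae differed from untreated larvae in 3744 of 13463 genes tested (27.8%) at an adjusted p under 0.05 (quasi-likelihood F test of edgeR, p adjusted after Benjamini and Hochberg). Of these, 1941 were higher (14.4% of genes tested) and 1803 lower (13.4%). Most changes were small, since 2342 of the called genes (62.6%) had an absolute log2 change under 0.5, and the median was 0.37 for genes higher and -0.46 for genes lower. In 5786 of the 13463 genes the CPM of the 3 UV libraries did not overlap with that of the 3 others, and 3581 of these were called. Overlap was read in plain CPM, without the scaling factors given above. A change of at least 2-fold was found for 337 genes, 168 higher and 169 lower, and a change of at least 4-fold for 24 and 8. The largest rises and falls named below were picked among genes without overlap, so its absence there was set by the choice. In RNA from whole worms, fewer cells of a type and less RNA per cell cannot be told apart.

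**Figure D1:**
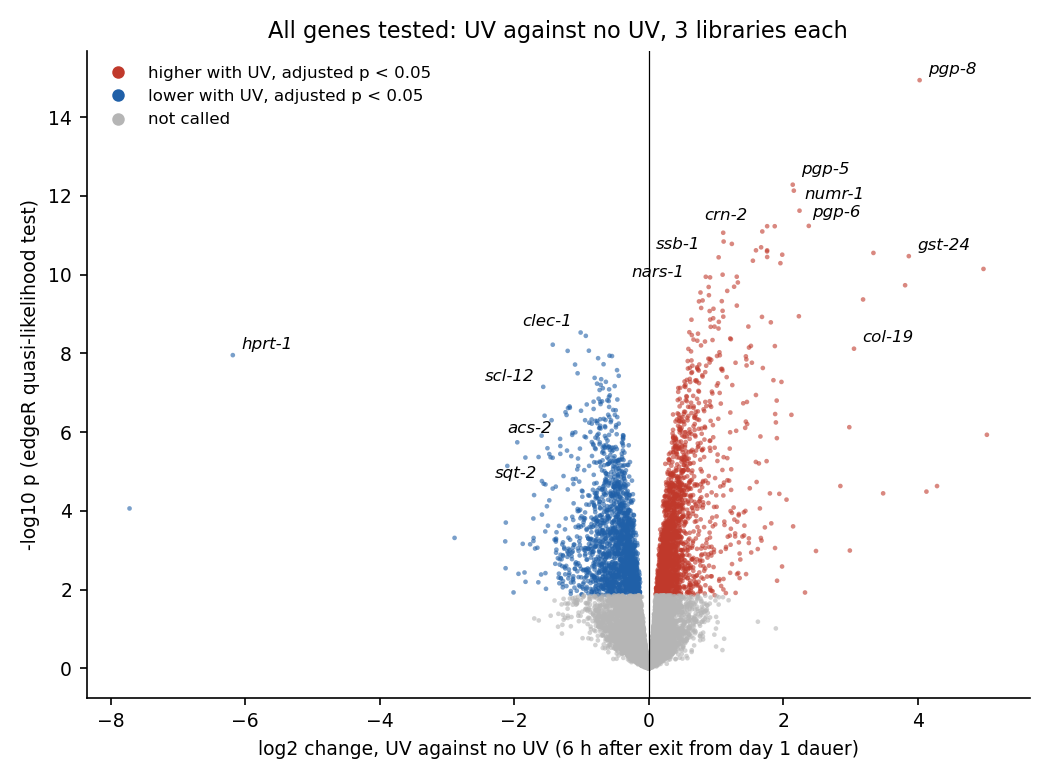
Log2 change with UV (x axis) against -log10 of the unadjusted p of edgeR's quasi-likelihood test (y axis) for each of the 13463 genes tested, with 1941 genes called higher in red, 1803 called lower in blue and the rest in grey. The gene pgp-8 has the smallest p, and the steepest fitted fall of a labelled gene is that of hprt-1.

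The gene with the smallest p was pgp-8, which encodes a P-glycoprotein, an ATP-driven pump that exports small molecules from cells. Its level was 13.8, 13.2 and 14.1 CPM without UV and 231, 207 and 211 CPM with UV (log2 change 4.03, standard error 0.069, adjusted p = 1.5e-11 by edgeR), and the groups stood far apart with little spread within either. Next to it on chromosome X lie 3 further P-glycoprotein genes, which rose as well. From left to right, pgp-5, pgp-8, pgp-7 and pgp-6 occupy bases 10854216 to 10877425 of the minus strand in WBcel235. The level of pgp-5 was 103, 116 and 112 CPM without UV and 467, 438 and 505 CPM with UV (log2 change 2.14, standard error 0.063, adjusted p = 3.3e-09 by edgeR). For pgp-6 it was 91.4, 97.5 and 104 CPM without UV and 434, 408 and 497 CPM with UV (log2 change 2.24, standard error 0.075, adjusted p = 8.0e-09 by edgeR). The least expressed after UV, pgp-7, stood at 20.7, 22.6 and 22.2 CPM without UV and 69.3, 68.8 and 76.1 CPM with UV (log2 change 1.76, standard error 0.072, adjusted p = 2.3e-08 by edgeR). In each of the 4 genes every UV library lay above every library without UV. The copies resemble each other, and reads that fit more than 1 of them are divided by estimation, so the values are less certain gene by gene than for the cluster. Among the 3 tested genes on either side of the cluster, plc-1 (-0.14, adjusted p = 0.0425 by edgeR) fell slightly and F47B10.5 (0.23, adjusted p = 0.0227) rose slightly, calls lost in 8 and 5 of 11 alternatives, and the other 4 did not pass the test.

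Of all 14 P-glycoprotein genes tested, a list chosen after values were seen, 10 rose, pgp-11 fell and 3 did not pass the test, with a median log2 change of 0.57 against 0.0033 over all genes. Their summed level was 1245, 1293 and 1308 CPM without UV and 2311, 2168 and 2397 with UV. Outside the cluster, pgp-14 had the highest log2 change, 1.06 ± 0.091 (standard error). The exception, pgp-11, stood at 173, 174 and 176 CPM without UV and 91.9, 117 and 89.3 CPM with UV (log2 change -0.76, standard error 0.084, adjusted p = 5.9e-05 by edgeR), again with no overlap.

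**Figure D2:**
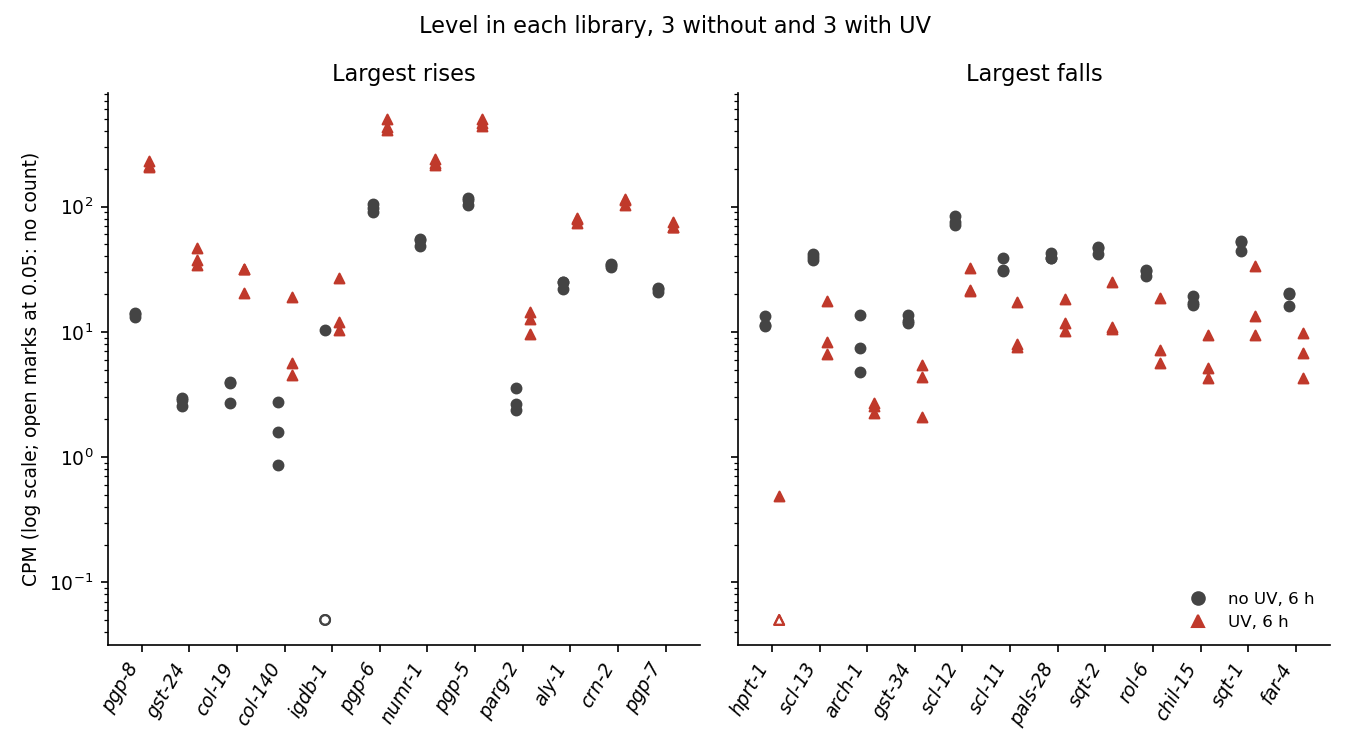
CPM on a log scale in each library for the 12 genes with the largest rise (left) and the 12 with the largest fall (right) by the rule for named genes, with circles for 3 libraries without UV and triangles for 3 with UV. Open marks drawn at 0.05 are libraries with no count. The rule admitted only genes in which UV and other libraries do not overlap. The margin is narrow for igdb-1, where 1 library without UV has nearly as much as the lowest UV library.

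Other large rises belonged to genes of detoxification, RNA handling and nucleic acid metabolism. The glutathione transferase gene gst-24, whose product belongs to a family that conjugates glutathione to reactive compounds, was 2.56, 2.85 and 2.99 CPM without UV and 46.8, 34.1 and 37.4 CPM with UV (log2 change 3.87, standard error 0.16, adjusted p = 2.4e-08 by edgeR). The metal-responsive gene numr-1 was 48.1, 54.9 and 54.4 CPM without UV and 239, 214 and 224 CPM with UV (log2 change 2.16, standard error 0.065, adjusted p = 3.3e-09 by edgeR). Both were barely variable within a group compared with the distance between groups. For crn-2, which encodes a TatD-type nuclease, the values were 34.2, 34.9 and 33.1 CPM without UV and 114, 104 and 116 CPM with UV (log2 change 1.76, standard error 0.064, adjusted p = 1.1e-08 by edgeR). For aly-1, of the ALY family of mRNA export factors, they were 21.8, 25.1 and 25.1 CPM without UV and 79.7, 74.1 and 81.6 CPM with UV (log2 change 1.76, standard error 0.075, adjusted p = 2.4e-08 by edgeR). The poly(ADP-ribose) glycohydrolase gene parg-2, which removes the polymer that marks damaged DNA, was less abundant, at 2.67, 2.40 and 3.57 CPM without UV and 9.67, 12.8 and 14.5 CPM with UV (log2 change 2.12, standard error 0.21, adjusted p = 2.3e-05 by edgeR). None of these genes had a UV library within the range of the others, which the rule for the largest rises asked for. The La RNA-binding protein gene ssb-1 was 229, 219 and 215 CPM without UV and 428, 433 and 454 CPM with UV (log2 change 1.04, standard error 0.044, adjusted p = 2.4e-08 by edgeR), with the spread of each group far below the distance between them.

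The collagen gene col-19, known for its expression in the adult cuticle, was low without UV and rose, at 3.90, 4.00 and 2.70 CPM without UV and 31.9, 20.5 and 31.6 CPM with UV (log2 change 3.05, standard error 0.21, adjusted p = 1.4e-06 by edgeR). Its UV replicate 2 was the lowest of the UV libraries and still above every library without UV. A second collagen, col-140, was highest in UV replicate 3, at 2.77, 1.598 and 0.867 CPM without UV and 5.59, 4.52 and 18.9 CPM with UV (log2 change 2.49, standard error 0.58, adjusted p = 0.00715 by edgeR), and without that library its change was smaller (log2 change 1.601, adjusted p = 0.00432 by edgeR). The rise of igdb-1 rested on few libraries, at 10.3, 0 and 0 CPM without UV and 26.9, 10.3 and 11.97 CPM with UV (log2 change 2.33, standard error 0.78, adjusted p = 0.0443 by edgeR), and it had no count in any D1 library at 0 h or 24 h, with or without UV at 24 h. The calls of col-140 and igdb-1 were lost in some of the alternative fits.

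Several of the steepest risers have only a sequence name and no described role. F19B10.13 on chromosome II was 0.41, 0.799 and 0.385 CPM without UV and 16.8, 16.9 and 14.8 CPM with UV (log2 change 4.98, standard error 0.23, adjusted p = 4.2e-08 by edgeR), F59C12.4 on chromosome X was 5.13, 4.57 and 3.18 CPM without UV and 46.2, 39.2 and 39.6 CPM with UV, T24A6.7 on chromosome V was 1.13, 1.03 and 0.771 CPM without UV and 13.2, 13.1 and 13.7 CPM with UV, and F08G2.5 on chromosome II was 13.8, 13.5 and 12.8 CPM without UV and 67.8, 72.4 and 61.1 CPM with UV (log2 change 2.38, standard error 0.086, adjusted p = 1.1e-08 by edgeR). In all 4 the UV libraries were nearly level with each other and far above the rest. Genes with a change of at least 2-fold often lay side by side, in both directions. Of 168 that rose, 34 (20.2%) were next to another one among the tested genes, in 14 runs, against 2.2% of the other tested genes. Of 169 that fell, 24 (14.2%) were next to another one, in 11 runs, against 2.31% of the other tested genes. Neighbours that are copies of each other can share reads. One run of risers on chromosome V, between bases 4038410 and 4044951 of WBcel235, holds C49G7.12 (14.7, 14.7 and 14.2 CPM without UV and 54.9, 51.3 and 60.3 CPM with UV), C49G7.10 (13.8, 12.8 and 15.3 CPM without UV and 56.1, 50.5 and 50.9 CPM with UV), the infection response gene irg-2 (log2 change 1.69 ± 0.097) and phat-3 (1.49 ± 0.32). A run of 4 F-box genes on chromosome III holds fbxa-37 (1.54 ± 0.11), fbxa-50 (1.89 ± 0.19), fbxa-36 (1.2402 ± 0.32) and fbxa-35 (1.64 ± 0.21), each value a log2 change ± standard error. These runs were picked after their values were seen.

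Genes that make RNA and protein were called higher more often than the 14.4% of all genes. Calls also went with abundance, with a median count of 516 for genes higher, 272 for genes lower and 158 for genes not called. The part of abundance in the share of a list, here and below, was not tested. Of 20 cytosolic aminoacyl-tRNA synthetase genes, whose enzymes charge tRNAs with their amino acids, 13 rose, wars-1 and yars-1 fell and 5 did not pass the test (median log2 change 0.23). The calls of lars-1 and yars-1 were lost in 7 and 8 of 11 alternatives. Their summed level was 4376, 4262 and 4264 CPM without UV and 5294, 5259 and 5442 with UV, with every UV library above the others. For nars-1, of asparagine, the values were 165, 165 and 168 CPM without UV and 299, 293 and 311 CPM with UV (log2 change 0.91, standard error 0.043, adjusted p = 5.8e-08 by edgeR). For sars-1, of serine, they were 272, 264 and 261 CPM without UV and 496, 444 and 498 CPM with UV (log2 change 0.91, standard error 0.051, adjusted p = 2.6e-07 by edgeR). For aars-2, of alanine, they were 254, 244 and 244 CPM without UV and 403, 414 and 429 CPM with UV (log2 change 0.80, standard error 0.042, adjusted p = 1.7e-07 by edgeR). The change was spread unevenly over the list, since the synthetases of histidine, proline and aspartate (hars-1 0.61, pars-1 0.65 and dars-1 0.67 in log2) rose by more than those of leucine and threonine (lars-1 0.12 and tars-1 0.20), while wars-1, of tryptophan, went from 59.8 ± 1.85 to 48.5 ± 1.57 CPM (mean ± SD, n = 3; log2 change -0.25, standard error 0.06, adjusted p = 0.00923 by edgeR).

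Of 40 splicing genes, 21 rose, 2 fell and 17 did not pass the test (median 0.26). The GTPase of the U5 particle, eftu-2, was 231, 222 and 223 CPM without UV and 322, 302 and 327 CPM with UV (log2 change 0.55, standard error 0.045, adjusted p = 6.3e-06 by edgeR), and the Sm protein gene snr-1 was 52.7, 46.8 and 48.6 CPM without UV and 77.1, 70.8 and 70.5 CPM with UV (log2 change 0.62, standard error 0.066, adjusted p = 4.6e-05 by edgeR). The U2AF subunit uaf-1, which reads the end of introns, fell (log2 change -0.28, standard error 0.069, adjusted p = 0.011 by edgeR). Of 34 genes of RNA polymerase II and its elongation factors, 13 rose and cpsf-1 fell (median 0.19). The largest subunit of the polymerase, ama-1, was 437, 444 and 435 CPM without UV and 650.2, 629.8 and 649 CPM with UV (log2 change 0.61, standard error 0.038, adjusted p = 6.9e-07 by edgeR), and the second largest, rpb-2, was 119.7, 119.1 and 114.9 CPM without UV and 143, 160.0 and 153 CPM with UV (log2 change 0.42, standard error 0.052, adjusted p = 1.3e-04 by edgeR). In both genes the groups did not overlap.

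Of 35 ribosome biogenesis genes 16 rose and 4 fell (median 0.15), led by lpd-6 at 73.3, 74.4 and 80.8 CPM without UV and 124, 116 and 131 CPM with UV (log2 change 0.75, standard error 0.061, adjusted p = 5.8e-06 by edgeR) and the nucleolar GTPase gene nog-1 at 400.2, 378 and 385 CPM without UV and 504, 540.2 and 473 CPM with UV (log2 change 0.44, standard error 0.051, adjusted p = 8.4e-05 by edgeR). The ribosomal proteins themselves moved less. Of 81 cytosolic ribosomal protein genes 19 rose and 62 did not pass the test, 80 had a fitted log2 change above 0, and the median was 0.087. Leaving out single libraries gave 8 to 26 that rose, with 8 without D1 6 h replicate 2 or 3 and 12 without UV replicate 3. By the smallest p they included rps-27 (log2 change 0.50, standard error 0.058, adjusted p = 8.0e-05 by edgeR) and rpl-19, at 1508, 1485 and 1512 CPM without UV and 1851, 1789 and 1939 CPM with UV (log2 change 0.36, standard error 0.038, adjusted p = 4.2e-05 by edgeR). Of 34 proteasome genes 12 rose and rpn-8 fell (median 0.14), and leaving out single libraries gave 4 to 11 that rose, with 6, 7 and 4 without D1 6 h replicate 1, 2 and 3. The core subunit pbs-2 was 106, 109 and 102 CPM without UV and 132, 124 and 147 CPM with UV (log2 change 0.40, standard error 0.063, adjusted p = 7.5e-04 by edgeR). Mitochondrial ribosomal proteins (8 higher and 3 lower of 69, with 3 higher without D1 6 h replicate 2), the respiratory chain (3 and 1 of 49) and the vacuolar ATPase (1 higher of 21) were called less often than the 27.8% of all genes.

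Heat shock genes differed in direction. Of 12 small heat shock protein genes, whose products keep unfolded proteins from clumping, 6 rose, 2 fell and 4 did not pass the test. For hsp-43 the values were 179.8, 193 and 188 CPM without UV and 330.1, 347 and 329 CPM with UV (log2 change 0.90, standard error 0.046, adjusted p = 1.3e-07 by edgeR). For hsp-16.41 they were 29.2, 29.3 and 28.5 CPM without UV and 38.5, 37.6 and 39.1 CPM with UV (log2 change 0.46, standard error 0.065, adjusted p = 3.6e-04 by edgeR), although the near-identical hsp-16 copies share reads. By contrast hsp-12.6, known for its expression in dauer, fell, at 539.8, 522 and 539 CPM without UV and 306, 355 and 292 CPM with UV (log2 change -0.69, standard error 0.063, adjusted p = 1.3e-05 by edgeR). Of 48 large chaperones 11 rose and 2 fell, and without D1 6 h replicate 1 there were 7 that rose. They included dnj-14 (log2 change 0.68, standard error 0.067, adjusted p = 2.6e-05 by edgeR) and hsp-110 (log2 change 0.27, standard error 0.042, adjusted p = 7.0e-04 by edgeR). The autophagy receptor sqst-1 was 517, 514 and 484 CPM without UV and 689, 746 and 660.4 CPM with UV (log2 change 0.52, standard error 0.051, adjusted p = 2.2e-05 by edgeR). It was 1 of 4 autophagy genes of 30 that rose (13.3%, near the 14.4% of all genes), or of 7 without UV replicate 3. Of the metal response genes numr-1, cdr-4 (log2 change 0.95, standard error 0.062, adjusted p = 9.6e-07 by edgeR) and cdr-2 (log2 change 0.51, standard error 0.051, adjusted p = 2.9e-05 by edgeR) rose and ttm-1 fell, of 10 tested. Of 16 superoxide dismutases, catalases and related genes sod-4 (log2 change 0.57, standard error 0.057, adjusted p = 2.6e-05 by edgeR), ctl-3 and prdx-2 rose, or 18.8% against 14.4% of all genes.

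Among the genes of DNA repair, csb-1 stood out. It encodes the worm form of the Cockayne syndrome protein that recognises a stalled polymerase, and it was 13.2, 13.9 and 14.4 CPM without UV and 28.5, 28.5 and 27.5 CPM with UV (log2 change 1.08, standard error 0.082, adjusted p = 3.1e-06 by edgeR; WBGene00000803 in the files, chromosome X of WBcel235 from 15861294 to 15865918). All UV libraries had close to the same level, well above every library without UV. Its partner csa-1 was low and did not pass the test, at 5.74, 6.51 and 6.84 CPM without UV and 5.50, 6.66 and 5.25 CPM with UV (log2 change -0.079, standard error 0.16, adjusted p = 0.758 by edgeR), with overlapping groups. The damage sensor xpc-1 was 91.7, 85.6 and 81.2 CPM without UV and 68.6, 76.1 and 71.5 CPM with UV (log2 change -0.20, standard error 0.063, adjusted p = 0.0311 by edgeR) and passed narrowly, a call that did not hold in each alternative fit. The value of xpa-1 was 17.4, 18.5 and 18.6 CPM without UV and 20.1, 21.7 and 20.2 CPM with UV (log2 change 0.24, standard error 0.085, adjusted p = 0.0569 by edgeR), which missed the threshold although the groups did not overlap. The TFIIH helicase genes moved apart, xpb-1 upwards, at 59.98, 53.1 and 53.6 CPM without UV and 69.6, 67.6 and 68.5 CPM with UV (log2 change 0.36, standard error 0.063, adjusted p = 0.0014 by edgeR) and xpd-1 downwards, at 62.2, 60.6 and 57.6 CPM without UV and 39.6, 39.3 and 41.8 CPM with UV (log2 change -0.53, standard error 0.063, adjusted p = 9.6e-05 by edgeR). Of 21 excision repair genes 5 rose (csb-1, xpb-1, rad-23, gtf-2H3 and ddb-1) and 2 fell, with a median of -0.027. These were 23.8% higher and 9.52% lower, against 14.4% and 13.4% of all genes. Only csb-1 was past 2-fold. The call of gtf-2H3 was lost in 8 of 11 alternatives and that of ddb-1 in 2, and 3 genes rose without D1 6 h replicate 3 or UV replicate 1.

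Of 12 genes of the damage checkpoint and apoptosis that passed the filter, the ATR kinase gene atl-1 rose, at 178, 188 and 186 CPM without UV and 301, 279 and 298 CPM with UV (log2 change 0.72, standard error 0.047, adjusted p = 9.8e-07 by edgeR), and 11 did not pass the test. The p53 homologue cep-1 was 31.2, 30.3 and 34.1 CPM without UV and 28.1, 24.95 and 29.7 CPM with UV (log2 change -0.16, standard error 0.084, adjusted p = 0.192 by edgeR). Its known targets egl-1 and ced-13, which start cell death, were near the floor of the assay and were not tested, with at most 0.565 CPM for egl-1 and 0.228 CPM for ced-13 in any of the 6 libraries. Of 30 other repair genes 2 rose, the double-strand break gene rad-50 at 96.7, 106 and 102 CPM without UV and 161, 154 and 168 CPM with UV (log2 change 0.72, standard error 0.054, adjusted p = 3.0e-06 by edgeR) and parp-2 (log2 change 0.19, standard error 0.064, adjusted p = 0.0486 by edgeR), and msh-6 of mismatch repair fell (log2 change -0.31, standard error 0.06, adjusted p = 0.00242 by edgeR). The call of parp-2 was lost in 10 of 11 alternatives. The shares that rose, 8.33% of checkpoint and apoptosis genes and 6.67% of other repair genes, were below the 14.4% of all genes. The translesion polymerase gene polh-1 was 17.4, 16.4 and 17.3 CPM without UV and 13.9, 15.8 and 15.4 CPM with UV and did not pass the test (adjusted p = 0.33 by edgeR). Of 29 DNA replication genes 2 were lower (6.9%, against 13.4% of all genes). They were pola-1 (-0.18 ± 0.058) and mcm-6 (-0.14 ± 0.046), with calls lost in 5 and 8 of 11 alternatives. Of 51 histone genes 3 were higher (5.88%) and 7 lower (13.7%), against 14.4% and 13.4% of all genes, with near-identical copies sharing reads. Without UV replicate 3 there were 10 histone genes that fell, and without D1 6 h replicate 1 there were 3. Leaving out D1 6 h replicate 1, 2 or 3 gave 0 histone genes that rose.

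**Figure D3:**
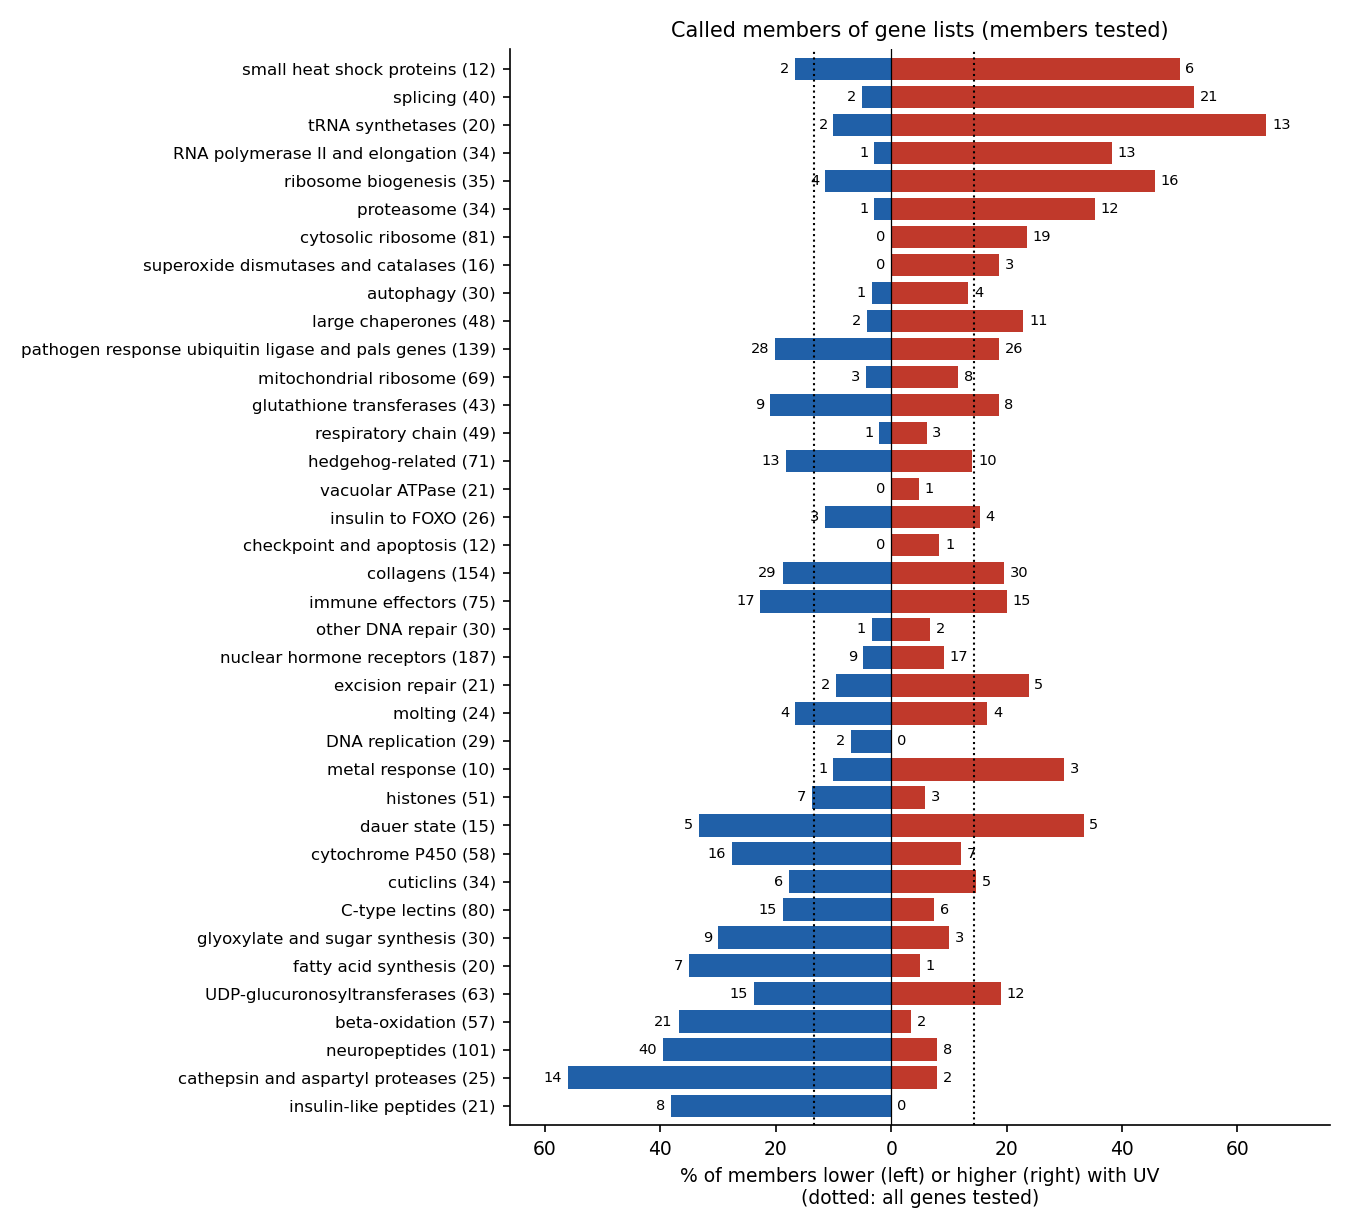
Share of the tested members of each gene list that was called higher (red, right) or lower (blue, left) with UV, with the number of members tested in brackets, the number called beside each bar and lists ordered by median log2 change. Dotted lines mark 14.4% and 13.4%, the shares of all genes called higher and lower. Small heat shock proteins, splicing, tRNA synthetases, RNA polymerase II, ribosome biogenesis and the proteasome lie at the top with bars to the right beyond the dotted line, and secreted peptides, lysosomal proteases and fat breakdown at the bottom with long bars to the left.

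Falls of at least 2-fold were found for 169 genes. Secreted proteins of the SCP family, relatives of insect venom allergens, were among the steepest, with scl-13 at 41.8, 39.5 and 37.7 CPM without UV and 6.63, 17.6 and 8.31 CPM with UV (log2 change -1.83, standard error 0.23, adjusted p = 1.3e-04 by edgeR), scl-12 at 84.0, 75.2 and 70.8 CPM without UV and 21.1, 32.3 and 21.5 CPM with UV (log2 change -1.57, standard error 0.13, adjusted p = 6.8e-06 by edgeR) and scl-11 at 38.7, 30.59 and 31.03 CPM without UV and 7.96, 17.4 and 7.57 CPM with UV (log2 change -1.56, standard error 0.23, adjusted p = 4.2e-04 by edgeR). UV replicate 2 was the highest UV library for each of the 3, which were picked among genes without overlap. Of 12 SCP-like genes tested, a list chosen after values were seen, 4 fell. The glutathione transferase gene gst-34 was 13.7, 12.1 and 11.8 CPM without UV and 4.36, 5.42 and 2.08 CPM with UV (log2 change -1.59, standard error 0.23, adjusted p = 3.8e-04 by edgeR), the chitinase-like gene chil-15 was 16.9, 19.4 and 16.5 CPM without UV and 5.12, 9.48 and 4.27 CPM with UV (log2 change -1.43, standard error 0.21, adjusted p = 5.0e-04 by edgeR), and the fatty acid and retinol binding protein gene far-4 was 20.3, 16.1 and 20.1 CPM without UV and 6.82, 9.71 and 4.27 CPM with UV (log2 change -1.38, standard error 0.2, adjusted p = 4.6e-04 by edgeR). Of 19 chitinase-like genes, again listed after values were seen, 8 fell, and 5 without D1 6 h replicate 1 or 3. The gene pals-28 was 38.9, 39.0 and 42.98 CPM without UV and 10.2, 18.2 and 11.7 CPM with UV (log2 change -1.55, standard error 0.15, adjusted p = 2.4e-05 by edgeR) and arch-1 was 7.48, 13.7 and 4.82 CPM without UV and 2.56, 2.26 and 2.69 CPM with UV (log2 change -1.71, standard error 0.36, adjusted p = 0.00409 by edgeR). The spread of arch-1 without UV was wide, but its lowest such library stayed above the UV libraries, as the rule for the largest falls asked.

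The lowest fitted change among genes with a mean count of at least 50 was that of hprt-1, the gene of a purine salvage enzyme, at 13.4, 11.3 and 11.1 CPM without UV and 0, 0 and 0.489 CPM with UV. It was between 8.58 and 48.4 CPM in all 9 libraries of D1 at 0 h, D1 at 6 h without UV and L3 larvae, and between 0 and 4.31 CPM in the other 45 libraries, among them D1 at 24 h without UV (0.363 ± 0.629 CPM, mean ± SD, n = 3). Counts near 0 were thus seen without UV as well. The libraries with and without UV compared here lay on opposite sides of this split. Both groups at 24 h on D1 and both at 6 h on D4 lay on the low side. What sets these libraries apart, a batch included, was not tested.

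Some collagens fell, unevenly between UV libraries. The genes sqt-2, rol-6 and sqt-1, in which mutations change body shape, were at 46.3, 42.2 and 47.5 CPM without UV and 10.52, 10.95 and 24.9 CPM with UV (log2 change -1.53, standard error 0.22, adjusted p = 4.3e-04 by edgeR), 31.1, 30.7 and 27.9 CPM without UV and 5.69, 7.11 and 18.8 CPM with UV (log2 change -1.50, standard error 0.29, adjusted p = 0.00242 by edgeR) and 52.9, 44.5 and 51.8 CPM without UV and 9.48, 13.4 and 33.5 CPM with UV (log2 change -1.40, standard error 0.3, adjusted p = 0.00437 by edgeR). In each of them UV replicates 1 and 2 were low and UV replicate 3 lay closest to the larvae without UV. Without UV replicate 3 the log2 changes were larger, at -2.03 for sqt-2, -2.17 for rol-6 and -2.08 for sqt-1. UV replicate 3 was closest for 25 of the 29 collagens that fell, whose median log2 difference from the mean without UV was -0.99 in UV replicate 1, -1.07 in UV replicate 2 and -0.30 in UV replicate 3. Of all 154 collagens tested, 30 rose (19.5%) and 29 fell (18.8%), against 14.4% and 13.4% of all genes, with a median of 0.003. Without UV replicate 3, 23 were called higher and 44 lower. Over all omissions of 1 library the counts ran from 21 to 48 for higher and from 19 to 44 for lower, with 48 higher without UV replicate 2 and 19 lower without UV replicate 1. Among abundant collagens, col-166 rose, at 1089, 1058 and 1048 CPM without UV and 1563, 1450.1 and 1591 CPM with UV (log2 change 0.58, standard error 0.042, adjusted p = 2.3e-06 by edgeR) and col-108 rose, at 2393, 2463 and 2537 CPM without UV and 3314, 3132 and 3214 CPM with UV (log2 change 0.44, standard error 0.038, adjusted p = 8.4e-06 by edgeR), with tight groups, and col-150 fell (log2 change -0.37, standard error 0.052, adjusted p = 3.4e-04 by edgeR).

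UV replicate 3 was also the highest UV library for some other surface genes, picked after their values were seen. The hedgehog-related gene wrt-1 was 19.4, 18.6 and 19.6 CPM without UV and 7.01, 7.56 and 12.9 CPM with UV (log2 change -1.03, standard error 0.18, adjusted p = 0.00127 by edgeR), the apical matrix gene noah-1 was 227, 231 and 237 CPM without UV and 153, 138 and 196 CPM with UV (log2 change -0.46, standard error 0.097, adjusted p = 0.00409 by edgeR), and the lipid-binding protein gene far-2 was 79.1, 64.8 and 79.9 CPM without UV and 36.96, 37.3 and 67.9 CPM with UV (log2 change -0.62, standard error 0.18, adjusted p = 0.0265 by edgeR). In far-2 the value of UV replicate 3 lay within the range of the larvae without UV, and its call was lost in 5 of 11 alternatives. Other genes did not follow this order. The cuticlin-like gene cutl-29 was 6.36, 5.25 and 7.42 CPM without UV and 3.32, 3.50 and 2.08 CPM with UV (log2 change -1.03, standard error 0.22, adjusted p = 0.00469 by edgeR), with UV replicate 3 lowest, and the protease gene nas-36 (log2 change -0.66, standard error 0.097, adjusted p = 4.4e-04 by edgeR) had UV replicate 1 highest. Over the 24 molting genes tested each of the 3 UV libraries was nearest to the level without UV for 8 genes. Of these 24, 4 rose (16.7%) and 4 fell (16.7%), shares near the 14.4% and 13.4% of all genes, and the calls of the 4 that rose were lost without D1 6 h replicate 1 or UV replicate 1. Of 34 cuticlins 5 rose (14.7%), among them cut-2 (1.22 ± 0.24), and 6 fell (17.6%), again near those shares. Of 6 markers of the hypodermis, the tissue that makes the cuticle, 4 fell (rol-6, dpy-5, dpy-7 and sqt-3). The other 2, elt-1 and nhr-23, did not pass the test. The 4 that fell are themselves collagen genes. The 6 markers summed to 357, 335 and 351 CPM without UV and 182, 178 and 275 with UV, and the part of the collagens in that sum was not tested.

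**Figure D4:**
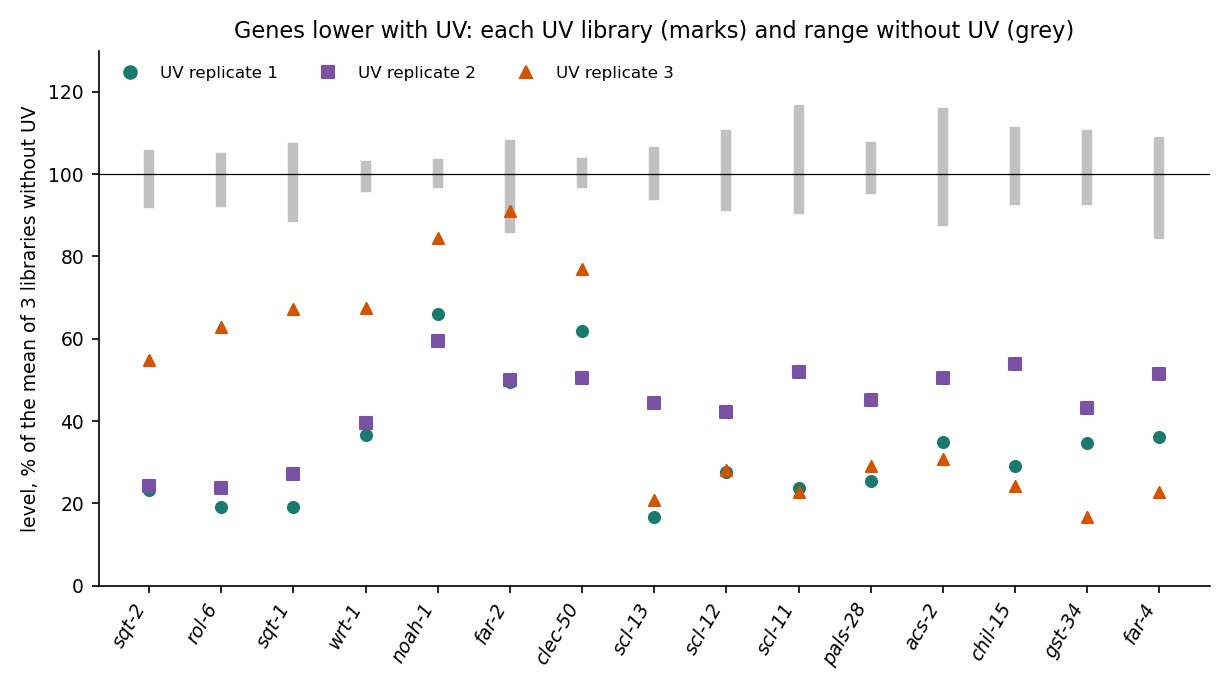
Level of genes lower with UV in each UV library (circles, squares and triangles for replicates 1, 2 and 3) as a percentage of the mean of the 3 libraries without UV, whose own range is the grey bar. UV replicate 3 is the highest UV library for the genes on the left, from sqt-2 to clec-50, and UV replicate 2 for the genes on the right, from scl-13 to far-4. The genes were picked after their values were seen.

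Neuropeptide genes were lower more often than the 13.4% of all genes. Of 101 tested, 40 fell, 8 rose and 53 did not pass the test (median -0.25), and the summed level was 3779.7, 3749 and 3737 CPM without UV and 3199.8, 3390.1 and 3262 with UV. For nlp-15 the values were 75.9, 73.3 and 70.9 CPM without UV and 39.0, 44.1 and 43.7 CPM with UV (log2 change -0.74, standard error 0.066, adjusted p = 1.2e-05 by edgeR). For flp-7, of the FMRFamide-like family, they were 28.3, 29.8 and 28.7 CPM without UV and 16.8, 18.7 and 14.8 CPM with UV (log2 change -0.73, standard error 0.093, adjusted p = 1.6e-04 by edgeR). For nlp-41 they were 29.02, 26.1 and 27.5 CPM without UV and 16.4, 18.1 and 15.9 CPM with UV (log2 change -0.66, standard error 0.086, adjusted p = 1.8e-04 by edgeR). UV libraries were close to each other and below the rest in all of them. The 8 that rose were nlp-25, nlp-26, nlp-29, nlp-31, nlp-33, nlp-34, nlp-36 and nlp-67, and of these nlp-29, nlp-31, nlp-33 and nlp-34 are known as antimicrobial peptide genes of the epidermis. Calls were lost in 6 of 11 alternatives for nlp-31, in 7 for nlp-67 and in 4 for nlp-29, and without D1 6 h replicate 1 there were 4 neuropeptide genes that rose. The highest of them in log2 change, nlp-25, was scarce, at 1.23, 1.37 and 1.73 CPM without UV and 3.98, 4.63 and 4.27 CPM with UV (log2 change 1.61, standard error 0.23, adjusted p = 3.9e-04 by edgeR). Leaving out single libraries moved the number that fell between 25 and 43, with 25 without UV replicate 1.

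Of 21 insulin-like peptide genes 8 fell (38.1%, against 13.4% of all genes) and 13 did not pass the test (median -0.40). Under omission of 1 library 5 to 7 fell, with 5 without D1 6 h replicate 1 or UV replicate 1. The level of ins-29 was 13.3, 14.4 and 15.61 CPM without UV and 6.16, 8.13 and 5.37 CPM with UV (log2 change -1.08, standard error 0.15, adjusted p = 3.4e-04 by edgeR), that of ins-1 was 15.99, 14.3 and 14.2 CPM without UV and 9.29, 9.60 and 7.69 CPM with UV (log2 change -0.68, standard error 0.12, adjusted p = 0.00172 by edgeR) and that of ins-17 was 52.6, 46.6 and 50.2 CPM without UV and 32.4, 34.1 and 33.6 CPM with UV (log2 change -0.53, standard error 0.069, adjusted p = 1.9e-04 by edgeR), with no overlap in any of them. Over all genes tested, 5786 of 13463 had no overlap. Of 10 general markers of neurons 6 fell (60%), namely eat-4 (-0.66), unc-17 (-0.58), ric-4 (-0.50), unc-64 (-0.40), unc-31 (-0.33) and egl-3 (-0.31) in log2. The 10 summed to 845, 829.7 and 832 CPM without UV and 626, 710.4 and 606 with UV. Every UV library was thus below every other library in neuron markers as in neuropeptides, and the part of neuron RNA as a whole in the peptide result was not tested. The hypodermis markers given above, 4 of them collagen genes, stood further apart between the groups than the neuron markers. The sums for the other tissues below stood closer, and their called markers stand beside 14.4% higher and 13.4% lower of all genes. Body-wall muscle markers summed to 17166, 17802 and 17119 CPM without UV and 15384, 15601 and 15410.3 with UV (3 of 10 fell), intestine markers to 3455, 3458 and 3407 CPM without UV and 3239, 3359 and 3263 with UV (ges-1 fell, of 9), and germline markers to 472, 490.1 and 488 CPM without UV and 435, 469 and 479 with UV (3 rose and 1 fell, of 7). Under omission of 1 library 1 or 2 germline markers rose, and 2 fell without UV replicate 2 or 3. Pharynx markers summed to 1279, 1238 and 1207 CPM without UV and 1171, 1267 and 1127 with UV, and the 7 tested did not pass the test.

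Genes of lysosomal protein breakdown and of fat use were lower more often than all genes. Of 25 cathepsin and aspartyl protease genes 14 fell and 2 rose (median -0.26). The cathepsin B-like genes cpr-9 and cpr-5 were 133, 133 and 149 CPM without UV and 72.6, 69.8 and 84.6 CPM with UV (log2 change -0.82, standard error 0.074, adjusted p = 1.3e-05 by edgeR) and 96.4, 95.3 and 95.0 CPM without UV and 54.1, 53.0 and 57.0 CPM with UV (log2 change -0.75, standard error 0.054, adjusted p = 2.1e-06 by edgeR). The most abundant exception, asp-6, rose, at 1635, 1674 and 1687 CPM without UV and 2077, 2015 and 2096 CPM with UV (log2 change 0.36, standard error 0.035, adjusted p = 2.3e-05 by edgeR). Of 57 beta-oxidation genes 21 fell and 2 rose, or 5 without UV replicate 2 (median -0.16). The acyl-CoA synthetase gene acs-2, which activates fatty acids for mitochondrial breakdown, fell, at 415, 348 and 320.2 CPM without UV and 126, 182 and 111 CPM with UV (log2 change -1.32, standard error 0.15, adjusted p = 6.0e-05 by edgeR), and maoc-1 of peroxisomal breakdown fell, at 123, 118 and 116 CPM without UV and 80.9, 79.1 and 71.8 CPM with UV (log2 change -0.56, standard error 0.057, adjusted p = 3.0e-05 by edgeR). Of 20 fatty acid synthesis genes 7 fell and lpin-1 rose, and elo-6 and elo-5, elongases of branched fatty acids, were among the former (log2 change -0.73, standard error 0.084, adjusted p = 7.7e-05 by edgeR, and log2 change -0.59, standard error 0.085, adjusted p = 4.1e-04 by edgeR).

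Of 30 genes of the glyoxylate cycle and sugar synthesis 9 fell (30%) and 3 rose (10%), against 13.4% and 14.4% of all genes. Leaving out single libraries gave 8 to 14 that fell, with 14 without UV replicate 2. The number that rose was 0 without D1 6 h replicate 2 or 3 and 1 without UV replicate 1. The glyoxylate enzyme gene icl-1 was 1633, 1467 and 1405 CPM without UV and 967, 1117 and 924 CPM with UV (log2 change -0.53, standard error 0.07, adjusted p = 2.2e-04 by edgeR), and pck-2, of the first committed step of sugar synthesis, was 1256, 1271 and 1229.9 CPM without UV and 1002, 985 and 999 CPM with UV (log2 change -0.28, standard error 0.035, adjusted p = 1.6e-04 by edgeR). In the insulin pathway, the receptor gene daf-2 itself, mutated in the worms of all 6 libraries, was 465, 463 and 464 CPM without UV and 324, 360.2 and 307 CPM with UV (log2 change -0.43, standard error 0.055, adjusted p = 1.5e-04 by edgeR), while its downstream kinase gene akt-2 was 181.2, 175 and 187 CPM without UV and 229, 224 and 224 CPM with UV (log2 change 0.37, standard error 0.044, adjusted p = 9.3e-05 by edgeR). Of 26 genes from the receptor to the FOXO factor and its targets, 4 rose (15.4%) and 3 fell (11.5%), close to the 14.4% and 13.4% of all genes. Of 15 genes known from the dauer state 5 rose and 5 fell. The risers were col-2, col-40 (log2 change 0.38, standard error 0.084, adjusted p = 0.00564 by edgeR), cut-1 (log2 change 0.31, standard error 0.05, adjusted p = 7.4e-04 by edgeR), far-3 (log2 change 0.39, standard error 0.069, adjusted p = 0.00149 by edgeR) and nlp-29, and those that fell were hsp-12.6, dct-16, icl-1, hil-1 and pck-2.

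Large families of detoxification and defence genes, and others given with them here, held members that rose and members that fell. The shares lower were above the 13.4% of all genes in each but the nuclear hormone receptors. The shares higher lay on both sides of the 14.4% of all genes. Of 43 glutathione transferase genes 8 rose (18.6%) and 9 fell (20.9%). Of 63 UDP-glucuronosyltransferase genes 12 rose and 15 fell (23.8%), and of 58 cytochrome P450 genes 7 rose (12.1%) and 16 fell (27.6%). In the second of these families ugt-24 was 40.1, 40.9 and 41.8 CPM without UV and 126, 109.5 and 122.4 CPM with UV (log2 change 1.597, standard error 0.065, adjusted p = 2.3e-08 by edgeR) and ugt-27 was 91.5, 84.2 and 90.9 CPM without UV and 51.3, 58.1 and 46.9 CPM with UV (log2 change -0.72, standard error 0.075, adjusted p = 3.9e-05 by edgeR). In the third, cyp-14A5 rose, at 161, 165 and 155 CPM without UV and 309.5, 318 and 358 CPM with UV (log2 change 1.09, standard error 0.058, adjusted p = 1.7e-07 by edgeR) and cyp-34A9 fell, at 179, 178 and 167 CPM without UV and 91.1, 116 and 83.3 CPM with UV (log2 change -0.80, standard error 0.094, adjusted p = 8.9e-05 by edgeR). Groups did not overlap in any of these 4 genes. Of 139 fbxa and pals genes, families with members linked to the response to intracellular pathogens, 26 rose (18.7%) and 28 fell (20.1%). Among those past 2-fold, 8 fbxa genes rose, 2 fbxa genes fell and 7 pals genes fell. For fbxa-163 the values were 14.6, 12.8 and 14.8 CPM without UV and 35.5, 37.6 and 41.2 CPM with UV (log2 change 1.48, standard error 0.09, adjusted p = 5.3e-07 by edgeR). For pals-33 they were 97.7, 100.004 and 97.5 CPM without UV and 48.1, 55.2 and 50.3 CPM with UV (log2 change -0.89, standard error 0.061, adjusted p = 1.5e-06 by edgeR). Of 75 immune effector genes 15 rose, among them fipr-26 at 16.3, 15.9 and 17.8 CPM without UV and 54.97, 53.2 and 55.5 CPM with UV (log2 change 1.76, standard error 0.072, adjusted p = 2.3e-08 by edgeR), and 17 fell (22.7%), among them the lysozyme gene lys-4 at 21.6, 18.6 and 21.5 CPM without UV and 9.19, 8.81 and 11.5 CPM with UV (log2 change -1.02, standard error 0.12, adjusted p = 9.0e-05 by edgeR). Of 80 C-type lectin genes 6 rose (7.5%) and 15 fell (18.8%), with clec-1 at 103, 97.6 and 95.1 CPM without UV and 50.1, 46.5 and 44.3 CPM with UV (log2 change -1.01, standard error 0.063, adjusted p = 6.9e-07 by edgeR). Of 187 nuclear hormone receptor genes 17 rose (9.09%), with nhr-3 at 47.3, 44.4 and 42.6 CPM without UV and 85.6, 92.6 and 88.5 CPM with UV (log2 change 1.04, standard error 0.062, adjusted p = 4.2e-07 by edgeR), and 9 fell (4.81%). Of 71 hedgehog-related genes 10 rose (14.1%) and 13 fell (18.3%).

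Some of these counts moved by more than 1.5 times when a library was left out. Without UV replicate 2, 24 immune effector genes, 19 hedgehog-related genes and 10 C-type lectin genes rose. The count of glutathione transferase genes that fell was 4 to 6 under every omission of 1 library, lowest without D1 6 h replicate 2. For C-type lectins that fell it was 11 without D1 6 h replicate 1, 8 without D1 6 h replicate 2, 7 without D1 6 h replicate 3 and 8 without UV replicate 1. For nuclear hormone receptors that rose it was 9 without D1 6 h replicate 2 and 10 without D1 6 h replicate 1, D1 6 h replicate 3 or UV replicate 1.

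The UV change at 6 h on D1 was set against that at 24 h on D1 and at 6 h on day 4 (D4), comparisons that share no library with it. In the D4 larvae UV had also been given on day 1, so those had 3 more days in dauer before exit. At 24 h, 1530 of 13113 genes were called (11.7%; 726 higher and 804 lower), and on D4 at 6 h 150 of 10896 (1.38%; 102 higher and 48 lower), from shallower libraries. The fitted UV effect differed between 6 h and 24 h on D1 in 1820 of 13903 genes (13.1%; interaction test in edgeR). Between D1 and D4 at 6 h it differed in 808 of 13524 genes (5.97%). A batch that followed the groups at 6 h on D1 would enter both differences, and its part was not tested. For the 168 genes with a rise of at least 2-fold, whose choice used the 6 h values, the median log2 change was 1.38 at 6 h and 0.40 at 24 h, where 61 of 140 tested were higher and 2 lower. On D4 at 6 h the median was 0.38, with 8 of 103 tested higher. The 169 genes with a fall of at least 2-fold had a median of -1.23 at 6 h. At 24 h it was -0.18 over 138 tested, of which 21 were lower and 4 higher. On D4 it was -0.10 over 65 tested, with 1 lower and 1 higher.

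**Figure D5:**
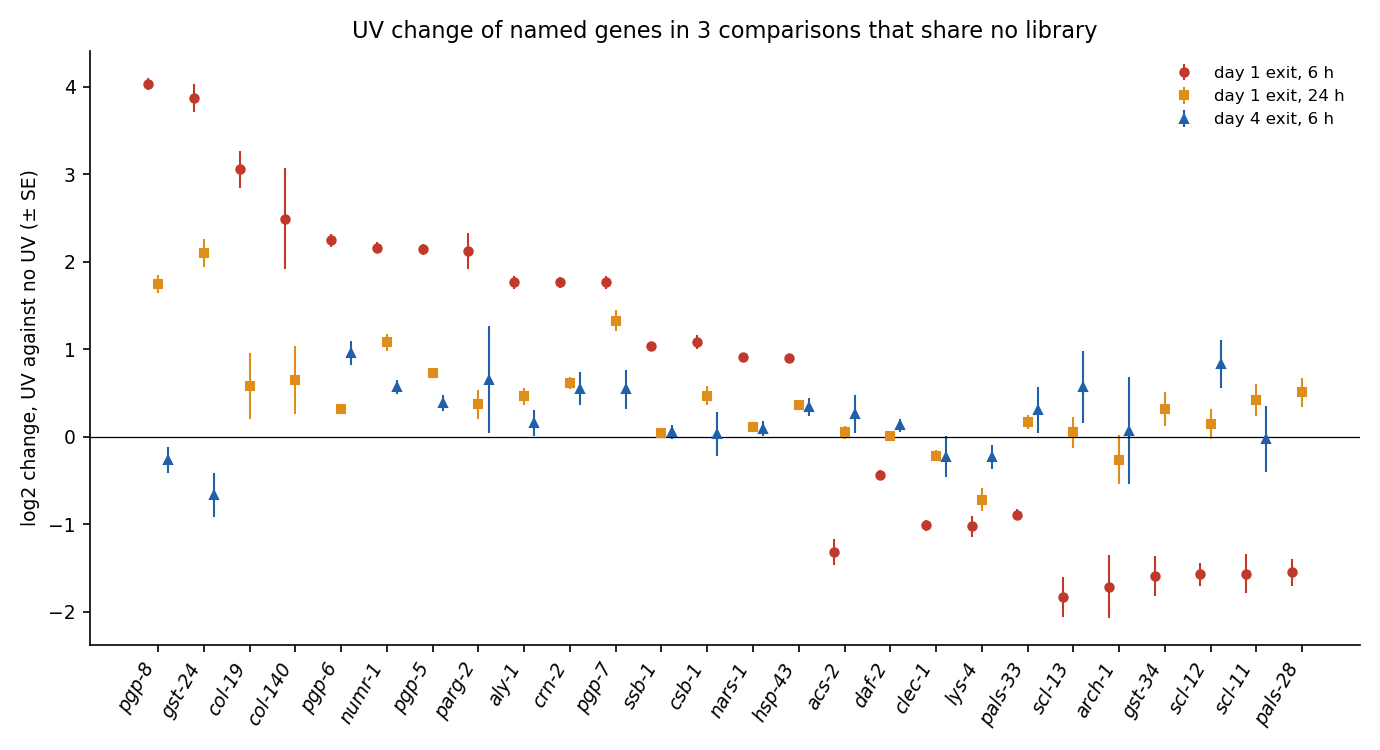
Log2 change with UV (y axis, with standard error bars) of named genes at 6 h of D1 exit (circles), 24 h of D1 exit (squares) and 6 h of D4 exit (triangles), where a missing mark is a gene that failed the count filter. For most of these genes, which were chosen on the 6 h values of D1, the circle lies furthest from 0, as for pgp-8 with log2 changes of 4.03, 1.75 and -0.27.

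For pgp-8 the log2 change at 24 h was 1.75 (standard error 0.1), with levels of 16.5 ± 1.55 CPM without and 55.4 ± 5.93 CPM with UV (mean ± SD, n = 3), and that on D4 was -0.27 (standard error 0.15). The difference from 6 h on D1 passed the interaction test in both cases (adjusted p = 7.2e-08 and 4.6e-11 by edgeR). For gst-24 the change was 2.099 at 24 h and -0.66 on D4 (interaction adjusted p = 5.0e-04 and 3.2e-07). The change of pgp-7 was 1.33 at 24 h (interaction adjusted p = 0.0438), and cdr-4 was at 0.73, a difference from 6 h that did not pass (adjusted p = 0.0799). The synthetase gene nars-1 was at 0.11 at 24 h (interaction adjusted p = 1.7e-06) and csb-1 at 0.47 (adjusted p = 0.00392). On the falling side lys-4 was at -0.72 at 24 h (adjusted p of the interaction 0.366), while acs-2 was at 0.052 (adjusted p = 1.5e-04). The matrix gene fbn-1 went the other way, with -0.28 at 6 h and -1.41 at 24 h (adjusted p = 2.7e-04).

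For some of these genes the D1 means at 0 h, 6 h and 24 h without UV are given side by side with the UV mean at 6 h, with no test. For icl-1 the means were 876 ± 23.2, 1502 ± 118 and 4482 ± 163 CPM without UV and 1003 ± 101 with UV at 6 h. For acs-2 these were 131 ± 7.996, 361 ± 48.6 and 788 ± 26.999, against 139.6 ± 37.6. In both genes the UV level at 6 h lay closer to the level at 0 h than to that at 6 h without UV. For sqt-2 they were 11.1 ± 2.46, 45.4 ± 2.77 and 21.2 ± 5.06, against 15.5 ± 8.19. Levels were lower at 24 h in scl-12, with 68.1 ± 6.08, 76.7 ± 6.69 and 17.5 ± 3.66 against 24.97 ± 6.34, and in pals-33, with 105 ± 7.94, 98.4 ± 1.38 and 26.99 ± 0.399 against 51.2 ± 3.62. There the UV level at 6 h stood between those of 6 h and 24 h. For nars-1, with 121.8 ± 8.26, 166 ± 1.59 and 194 ± 7.75 against 301 ± 8.85, the UV level exceeded all 3.

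Genes called lower were longer than those called higher. Their median span from start to end was 3533 bp, against 2552 bp for genes higher and 2573 bp for all genes tested. In the quintile of longest genes (5438 to 87197 bp), 23.6% were lower and 10.9% higher, with a median log2 change of -0.070, and in the quintile of shortest genes (150 to 1308 bp) 9.73% were lower and 14.3% higher, with a median of 0.028. The longest quintile also had the most counts per gene (median 408 against 125). Genes with a change of at least 2-fold were short in both directions, with median spans of 1810 bp higher and 1833 bp lower. Per library, the median log2 CPM of the longest quintile minus that of the shortest was 1.75, 1.74 and 1.71 without UV and 1.65, 1.71 and 1.55 with UV. The difference of -0.095 between the groups (1.73 ± 0.024 and 1.64 ± 0.082, mean ± SD, n = 3) gave p = 0.2 in an exact two-sided permutation test. This test cannot go below 0.1 here, so it could not reach 0.05. UV replicate 2 lay within the range of the libraries without UV. The difference was -0.051 without UV replicate 3 and -0.046 with 3 length classes in place of 5 (exact p = 0.3). It was -0.15 among genes with 50 counts in all 6 libraries (exact p = 0.1) and -0.088 at equal thinned depth (exact p = 0.1). It turned to 0.011 with coding length in place of gene span (exact p = 0.5).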

How the data were processed

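RNA of whole daf-2 larvae was sequenced as paired-end Illumina libraries. The authors trimmed reads with fastp, quantified them with Salmon against WormBase ParaSite transcripts and summed them per gene with tximport, with versions not given in the sources used here. The deposited values are estimated counts per gene, with no normalization, and decimals in 57.8% to 64.7% of all values of the 6 libraries, zeros included. They were rounded to whole numbers here. Gene names and coordinates come from the WBcel235 annotation.

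Genes for which 3 or more of the 6 libraries held 10 or more counts were tested in edgeR 4.0.16 (R 4.3.3, limma 3.58.1) with TMM scaling, glmQLFit and glmQLFTest on these libraries alone, with Benjamini-Hochberg adjustment over all genes tested and a threshold of 0.05. The UV effect was compared between 6 h and 24 h and between D1 and D4 by interaction terms. Single values per library were compared by exact two-sided permutation tests, which cannot go below p = 0.1 with 3 against 3. The scripts were tested on simulated counts. Levels are CPM, counts scaled to the library total, and ± is the SD unless named a standard error. Counts carry sampling error only as far as reads are independent molecules.

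Named genes are up to 12 of the largest rises and falls among called genes that have a symbol, average 50 or more counts and do not overlap between groups, the members of each list with the smallest p, the 4 genes with the smallest p of each interaction test, and csb-1, csa-1, xpc-1, xpa-1, cep-1, egl-1, ced-13 and polh-1. Other genes named were chosen after their values were seen. The comparison, members and lists were chosen with earlier results of these data known. Same-numbered libraries did not deviate together (r of -0.057, -0.0013 and -0.021), so numbers were not treated as pairs. Alternatives were RLE scaling, other filters, DESeq2 1.42.0, a block for the replicate number, a joint fit of all 54 libraries, thinning to equal depth, stricter thresholds and leaving out each library. A search of promoters for motifs was planned and not run, because no promoter sequences were used here. Figures were drawn with Python 3.11.15, pandas 2.3.3 and matplotlib 3.10.9.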

Additional observations from a re-analysis of the deposited data

Results flagged for a closer look

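Results are listed here where the UV effect differed between hours of exit or between days of dauer by an interaction test in edgeR. The effect differed between 24 h and 6 h on D1 for 1820 genes, and between D4 and D1 at 6 h for 808 genes. By the smallest p, the genes named for the change of hour were pgp-8, with a difference in log2 change (24 h minus 6 h) of -2.27, pgp-6 with -1.91, pgp-5 with -1.40 and ssb-1 with -0.99. Those named for the change of day (D4 minus D1) were gst-24 with -4.52, pgp-8 with -4.29, pgp-5 with -1.75 and numr-1 with -1.59. In each of them the fitted UV effect was larger at 6 h on D1, and the part of a batch in this was not tested.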

How the results depend on the processing

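With an adjusted p under 0.01, 2196 genes were called (1177 higher and 1019 lower), and with an absolute log2 change of at least 1, 337 (168 and 169). At 0.01 the interaction with hour was called for 887 genes and that with day for 324. Leaving out single libraries gave 2690 to 4069 called genes, 1417 to 1959 for hour and 526 to 863 for day, the last lowest without D1 6 h replicate 2 and next, at 531, without D1 6 h replicate 3. DESeq2 called 2673 genes (1430 higher and 1243 lower), 1342 for hour and 945 for day. With the replicate block these were 3488 (1797 and 1691), 1733 and 575. One fit of all 54 libraries called 3122. Of the 3744 genes, 2211 were called in all 6 omissions and 2658 by DESeq2. Of 2487 log2 changes of 228 named genes under up to 11 alternatives, 2318 stayed on their side of the threshold, 169 lost the call, and the direction of a called gene turned in 0. Of 224 of these genes that were called, 47 lost the call at least once, most often parp-2 (10 of 11 alternatives) and gtf-2H3, mcm-6, plc-1, vha-12 and yars-1 (8 each). The length difference ran from -0.131 to -0.051 when single libraries were left out and reversed with coding length in place of gene span, to 0.011, and the cause was not tested. Small changes in scarce genes are limited by depth.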

Other observations

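Some scarce genes had large fitted changes but a mean count under 50. The gene srlf-21 rose (log2 change 5.03, standard error 0.58, adjusted p = 5.2e-05 by edgeR), as did col-119 (log2 change 4.29, standard error 0.64, adjusted p = 4.6e-04 by edgeR) and fbxa-181 (log2 change 3.49, standard error 0.56, adjusted p = 6.1e-04 by edgeR). They were chosen after their values were seen, and a fitted change of a gene with few counts depends on the prior count. Chromosome V held 60 of the 168 genes with a rise of at least 2-fold, 2.1% of its 2852 tested genes, against 0.83% to 1.33% on the other chromosomes. It also held 50 of the 169 genes with a fall of at least 2-fold, 1.75%, against 0.71% to 1.68% on the others.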
